A study of Mus musculus with 30 samples.

Results

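The open chromatin of mouse pachytene spermatocytes (pacSC) was compared with that of round spermatids (rST), region by region, on chromosomes 1 to 19. The members were all autosomal regions of the ATAC-seq peak list of each stage: 32902 in pacSC and 6233 in rST, together 39135 of the 185395 regions on all chromosomes in the 4 ATAC-seq lists of the series. Both stages were isolated from the testes of adult C57BL/6 mice, and neither carried a named mutation or treatment. The other 2 lists, used only for comparison, came from primitive type A spermatogonia (PriSG-A) at day 6 after birth and from type A spermatogonia (SG-A) at day 8. The deposited name of the PriSG-A list is garbled, and the list was assigned to that stage from the labels and because the other 3 names match the other stages. Each ATAC-seq library was made from 50000 cells, and the labels give 2 libraries for pacSC, 2 for rST and 3 for each spermatogonial stage. Of the 30 samples of the series, 10 were ATAC-seq libraries. The Hi-C, CTCF, Rad21 and input samples were not analysed here.

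Pachytene spermatocytes are germ cells in meiotic prophase, when homologous chromosomes are fully paired along the synaptonemal complex, exchange DNA by recombination and are attached by their ends to the nuclear envelope. Round spermatids are the haploid cells that follow both meiotic divisions. They still transcribe a large set of genes and have not yet replaced their histones, which happens later, in elongating spermatids. ATAC-seq uses the transposase Tn5 to cut accessible DNA, and places where many reads collect mark a promoter, an enhancer or another site where nucleosomes are loose or absent.

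The labels of both libraries of a stage name the same list, so that each region has 1 value per stage and the spread between libraries could not be measured. No p-value between stages was therefore computed. Intervals are 95% intervals for counting error only, and treat neighbouring regions as independent. The depth of sequencing behind each list is unknown. "Listed again" and "not listed again" describe the 2 lists, and a region absent from rST may be open below the threshold of that list. The cell types could not be checked against marker genes, because no gene annotation of the files' assembly was used. Positions are given 1-based with both end bases included, on an assembly that the files do not name.

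Each region carries a deposited signal value that is an area over the region. It was divided by the region's width in bp to give a mean height per bp, called height here. What the area sums and how it scales with depth are not given in the sources used. Differences in height between stages are therefore differences in deposited values, and may hold a difference in depth. In pacSC the median height was 0.580 (5th to 95th percentile 0.212 to 2.11) and the median width 188 bp (72 to 1135 bp). In rST the median height was 0.451 (0.172 to 1.33) and the median width 183 bp (76 to 784 bp). The lists thus had nearly the same median width, and the upper end of both measures was lower in rST. The pacSC list covered 11.7 Mb of the autosomes and the rST list 1.83 Mb.

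Of the 32902 pacSC regions, 4659 were listed again in rST, meaning that at least 1 bp was shared with an rST region. This share of 14.2% (95% interval 13.8 to 14.5) is the background for every class of pacSC regions below. In the opposite direction, 5481 of 6233 rST regions overlapped a pacSC region, and the 752 that did not made up 12.1% (11.3 to 12.9). In bases, rST regions covered 13.2% of the pacSC list, and pacSC regions covered 84.7% of the rST list. The overlap rule was seldom a close decision. Only 62 of 5594 overlaps were shorter than 50 bp, the median overlap was 173 bp, and 39 of the 28243 pacSC regions not listed again ended within 100 bp of an rST region. The median distance from such a region to the nearest rST region was 182124 bp. With an overlap of at least 50% of both regions the kept share was 5.29% and the new share 72.1%. With both lists cut to 6233 regions by q they were 44.0% and 43.4%, so both shares depend on these choices.

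Wide pacSC regions were listed again far more often than narrow ones. Of regions under 150 bp, 493 of 14464 were listed again, or 3.41% (95% interval 3.12 to 3.72). The share was 9.42% (8.73 to 10.2) at 150 to under 300 bp, 16.5% (15.5 to 17.4) at 300 to under 600 bp, 37.1% (35.8 to 38.4) at 600 to under 1200 bp and 56.7% (54.1 to 59.4) at 1200 bp and over. No interval overlapped that of the next class. The regions listed again had a median width of 700 bp and a median height of 1.34, against 152 bp and 0.527 for those not listed again. In contrast, the share of rST regions with a pacSC counterpart varied much less with their own width. It was 83.7% (82.3 to 85.1) under 150 bp and between 91.0% and 91.8% in the 4 wider classes.

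Height and width each went with a higher kept share when the other was held equal. Within 20 classes of equal width, the highest quintile of height was listed again in 22.3% of cases (21.4 to 23.2) and the lowest in 8.81% (8.15 to 9.47). Within 20 classes of equal height, the widest quintile reached 22.6% (21.7 to 23.5) and the narrowest 7.27% (6.71 to 7.82). Among regions of 600 to under 1200 bp the share stayed between 17.1% and 24.1% over the 4 lower quintiles of height and was 47.1% (45.3 to 48.9) in the highest, which began at a height of 1.15. Among regions under 150 bp it was 8.32% (6.19 to 11.1) in that highest quintile. The kept part of the pacSC list was therefore concentrated in tall and wide regions.

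Shared regions were narrower in rST. For each shared pacSC region the rST region of longest overlap was taken as its partner, which gave 4659 pairs. The median width fell from 700 bp in pacSC to 234 bp in rST, and the median of the width ratio was 0.427 (quartiles 0.211 and 0.819). The rST partner was the narrower one in 3990 pairs, or 85.6% (84.6 to 86.6), and was at most 0.5 times as wide in 2609, or 56.0% (54.6 to 57.4). It was wider in 14.1%. The width ratio fell as the starting width rose. The median ratio was 1.08 for pacSC regions under 150 bp, 0.837 at 150 to under 300 bp, 0.526 at 300 to under 600 bp, 0.286 at 600 to under 1200 bp and 0.249 at 1200 bp and over. The pacSC width both set the classes and divided the ratio, so some fall was built in. Over the same classes of the earlier list, the ratio fell from 5.31 to 1.21 between PriSG-A and SG-A. Between SG-A and pacSC it fell from 2.18 to 0.42. Across the pacSC width classes the rST partners differed less in width than the pacSC regions did. Their median width was 108 bp in the narrowest class and 383 bp in the widest, where the pacSC medians were 101 and 1475.5 bp.

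A part of the rST partners had a width close to 100 bp, which was the most common width in each of the 4 lists. Widths of 90 to 110 bp made up 18.9% of the rST list and 18.1% of the pacSC list. They made up 12.1% of the partners of pacSC regions of 600 to under 1200 bp, where 29.6% of partners were under 150 bp and 41.3% were at least 300 bp wide. The partners of wide regions were thus of very different widths.

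Shared regions also had a lower deposited height in rST. The median height of the pairs was 1.34 in pacSC and 0.482 in rST, and the median log2 ratio of rST over pacSC height was -1.30 (quartiles -2.11 and -0.52). In 4013 pairs, or 86.1% (85.1 to 87.1), the rST height was lower. It was at most 0.5 times the pacSC height in 2796 pairs, or 60.0% (58.6 to 61.4), and at least 2 times as high in 181, or 3.88% (3.37 to 4.48). The lists as wholes differed too, and relative to the ratio of their median heights the log2 ratio was -0.94. Height in pacSC rose steeply over the 5 width classes, with medians of 0.519, 0.727, 0.968, 1.59 and 2.24 from the narrowest to the widest. The medians of their rST partners were 0.419, 0.448, 0.484, 0.484 and 0.553. Over the 4659 pairs the Spearman correlation between the stages was 0.24 for height and 0.32 for width. These are descriptions over regions that share their libraries, and regions entered only by passing the threshold of both lists. In the lowest quintile of pacSC height the median log2 ratio was 0.75, on 300 pairs, and in the highest -1.80, on 2690 pairs. The pacSC height both set these quintiles and divided the ratio, so some fall was built in here too.

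**Figure D1:**
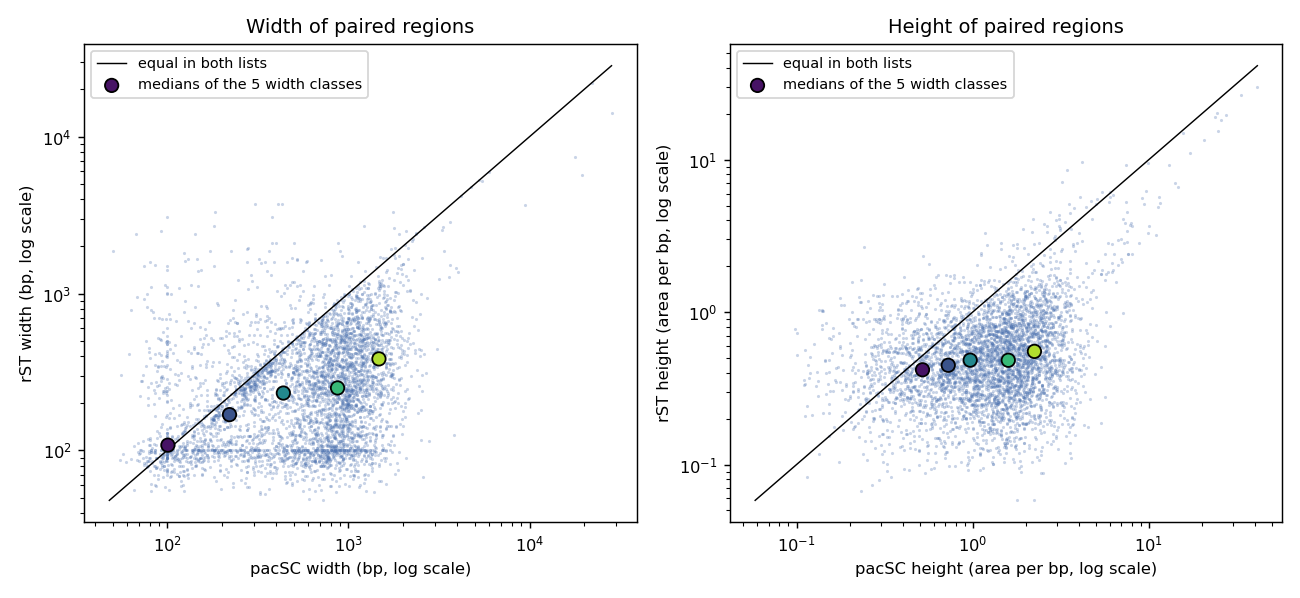
Width in bp (left) and height as area per bp (right) of the 4659 pairs, pacSC on the horizontal and rST on the vertical axis, all axes on log scales. Each small point is 1 pair, the black line marks equal values, and the large points are the medians of the 5 pacSC width classes. Most points lie under the line, and the medians rise much less in rST than in pacSC.

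The tallest regions did not follow this pattern. Among the 34 pairs with an rST height of at least 5, a bound chosen after seeing the values, the median width ratio was 0.980 and the median log2 height ratio -0.29. All 34 were listed in both spermatogonial lists as well. Of all 4659 pairs, 3560 were in at least 1 of these lists, and the number in both is not given here. The 34 pairs were picked by their rST height, so these values describe them only. The 5 of highest rST height among pairs at least 300 bp wide in both lists were as follows. On chromosome 1 at 24618314 to 24623073 the height went from 43.1 in PriSG-A to 56.6 in SG-A, then to 41.4 in pacSC and to 29.8 in rST, and the width was 4760 bp in pacSC and 4748 bp in rST. On chromosome 2 at 98506329 to 98507547 the height was 38.4, 55.6, 33.2 and 26.6 in the same order of stages. Both regions were highest in SG-A and lowest in rST, and kept both borders within 10 bp. The other 3 lay on chromosome 12 at 3109808 to 3110178 (24.3 in pacSC, 20.2 in rST), chromosome 6 at 103598983 to 103599363 (27.5 and 19.5) and chromosome 9 at 35112747 to 35113236 (23.6 and 18.96). Their width ratios were between 0.948 and 0.987. No regions were removed for repeated sequence.

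The summits of shared regions mostly stayed close together. The summit, the base of highest signal within a region, moved by a median of 40 bp (quartiles 12 and 146 bp). It lay within 10 bp in 23.4% of pairs (22.2 to 24.6), within 50 bp in 54.9% (53.5 to 56.3) and within 150 bp in 75.6% (74.4 to 76.8). The shift was larger in wide regions, with medians of 22, 28, 36, 52 and 66.5 bp over the 5 width classes. Relative to the pacSC width it was smaller there, at 0.205 of the width in the narrowest class and 0.0456 in the widest. In pacSC regions of 1200 bp and over, with a median width of 1475.5 bp, the summits of 44.6% of pairs were thus still within 50 bp of each other.

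**Figure D2:**
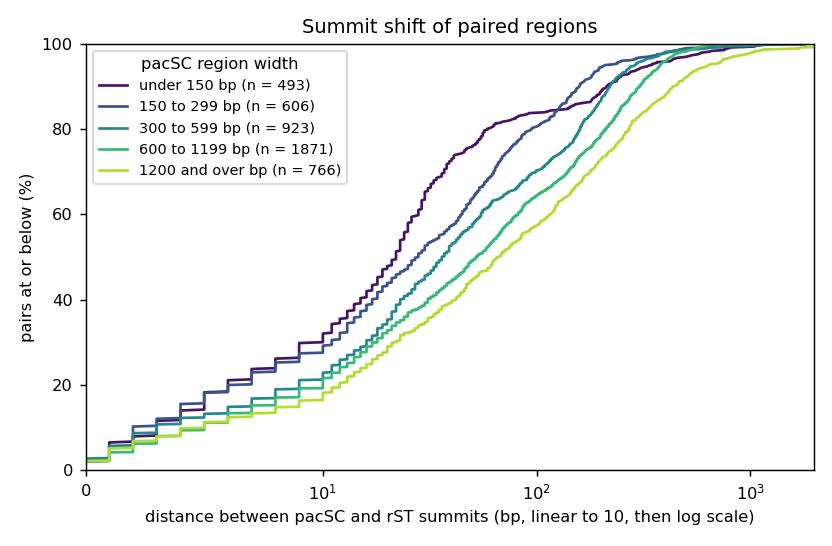
Cumulative share of pairs (vertical axis, %) by the distance between the pacSC and rST summits (horizontal axis in bp, linear to 10 bp and then on a log scale), 1 line for each class of pacSC width. At 50 bp the lines lie between 44.6% for the widest and 76.1% for the narrowest class.

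Most rST partners lay within the borders of their pacSC region. The rST partner was wholly inside the pacSC region in 76.5% of pairs (75.2 to 77.7), and in 96.2% (94.6 to 97.4) of those whose pacSC region was at least 1200 bp wide. The pacSC summit fell inside the rST partner in 82.0% of all pairs (80.8 to 83.0) and in 76.5% (73.4 to 79.4) of the widest class, although the partner there covered a median of 0.249 of the pacSC width. In 2799 pairs a pacSC region had 1 rST partner that lay wholly within it. In these the region lost a median of 89 bp on the side that lost less and 323 bp on the side that lost more, and the smaller loss was a median of 28.6% of the total. Sorting the sides by loss makes these values differ in any case. Taken by position, the median loss was 194 bp at the end of lower coordinates and 206 bp at the other. The centre of the rST partner lay at a median of 0.5 of the pacSC width. The rST summit was nearer to the pacSC summit than to the pacSC centre in 62.2% of pairs (60.8 to 63.6), and in 67.9% (64.5 to 71.1) of the widest class.

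Some wide regions were divided. Of the 4659 shared pacSC regions, 806 (17.3%) held more than 1 rST region: 694 held 2, 99 held 3 and 13 held 4 to 6. The median width of divided regions was 1038.5 bp, against 593 bp for the undivided. In the class of 600 to under 1200 bp 23.5% of shared regions were divided (21.6 to 25.4), and of 1200 bp and over 37.3% (34.0 to 40.8). Neighbouring rST summits within 1 pacSC region were a median of 309 bp apart (quartiles 245 and 433 bp), and the gaps between the rST regions had a median of 133 bp. No gap within any list was shorter than 101 bp. The reverse was rare. Of 5481 shared rST regions, 101 joined 2 pacSC regions and 6 joined 3. When the widths of all rST regions in a pacSC region were added up, the median ratio was 0.480 in place of 0.427.

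The most divided regions lay near the centromeric end of chromosomes 11 and 9. They were not filtered for repeated sequence either, and whether they hold it was not tested. The pacSC region on chromosome 11 at 3052095 to 3080430 held 6 rST regions, and the one at 3080578 to 3100116 held 5. On chromosome 9 the region at 3027039 to 3036519 held 5 and the one at 3009158 to 3026923 held 4. On chromosome 9, both pacSC regions lay within 1 region of 32793 bp in PriSG-A and of 32818 bp in SG-A, so that this stretch was listed whole in spermatogonia, in pieces in pacSC and in smaller pieces in rST. The height of the piece on chromosome 9 that started at 3027039 was 7.54 in pacSC and 4.53 in the longest rST piece, against 14.3 and 20.6 over the whole stretch in PriSG-A and SG-A.

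Single regions gave the extremes of narrowing and lowering among listed pairs. The following come from the 1189 pairs with 1 pacSC and 1 rST region, each at least 300 bp wide. The strongest lowering was on chromosome 8 at 13104651 to 13106699, where the height was 2.22 in pacSC and 0.0584 in rST, after 1.84 in PriSG-A and 5.11 in SG-A. The next were on chromosome 2 at 179800735 to 179802499 (1.78 in pacSC and 0.0583 in rST, and in neither spermatogonial list) and on chromosome 1 at 193961377 to 193962766 (3.55 and 0.120). The fourth lay on chromosome 18. In rST these regions had a -log10 q between 1.66 and 1.78, under the 5th percentile of the rST list, 1.81. They were thus near the threshold of that list, which bounds how low a listed height can be. The regions on chromosomes 2 and 1 were close to the distal end, at 1.95 and 3.14 Mb. The strongest narrowing was on chromosome 12 at 110030333 to 110033000, from 2668 bp to 312 bp. It was followed by chromosome 6 at 140571103 to 140573647 (2545 to 301 bp), chromosome 5 at 149862865 to 149865263 (2399 to 326 bp) and chromosome 14 at 15177813 to 15180913 (3101 to 445 bp). The distal end was 11.2 Mb away from the region on chromosome 12, 8.94 Mb from that on chromosome 6 and 2.67 Mb from that on chromosome 5. The region on chromosome 12 also had one of the longest summit shifts, of 1701 bp. Only 16 of the 1189 pairs had a shift over 500 bp, and the longest, 8216 bp, was in a region of 21976 bp on chromosome 11 that began at 3026823. The region on chromosome 1 at 24618314 described above had a shift of 1164 bp at nearly equal borders, and the one on chromosome 6 at 23408880 to 23410486 a shift of 1129 bp.

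Few such pairs were higher or wider in rST: 141 of 1189 (11.9%) were higher and 132 (11.1%) were wider, against 13.9% and 14.1% of all 4659 pairs. The largest rise was on chromosome 7 at 67024173 to 67024498, where the height was 0.242 in pacSC and 2.68 in rST, after 2.49 in PriSG-A and 3.24 in SG-A. The rST value was close to that of PriSG-A and 11.1 times that of pacSC. On chromosome 6 at 47635829 to 47636464 the height was 0.199 in pacSC and 0.900 in rST, against 2.71 in PriSG-A and 5.07 in SG-A. Other pairs had no spermatogonial counterpart: chromosome 5 at 96431790 to 96432283 (0.178 in pacSC and 1.24 in rST) and chromosome 3 at 27385358 to 27385834 (0.147 and 0.854). The largest widening was on chromosome 1 at 85251282 to 85251609, from 328 bp to 1572 bp, and at 85266478 to 85266852, from 375 bp to 1310 bp. It was followed by chromosome 7 at 67004345 to 67004803 (459 to 1084 bp) and chromosome 6 at 47635271 to 47635695 (425 to 968 bp). All 4 of the widened regions were listed in both spermatogonial stages. Of all 4659 pairs, 3560 were listed in at least 1 of these stages, and the number in both is not given here. The widened region on chromosome 6 had the same PriSG-A and SG-A counterparts as the region on chromosome 6 that was higher in rST.

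Of these 8 places, the 6 on chromosomes 1, 6 and 7 fell into 1 Mb windows that were unusually rich in rST regions. The 24 windows at or above the 99th percentile of rST regions held at least 11 each, against a median of 3 over 1818 occupied windows. The window from 85000001 to 86000000 on chromosome 1 held 123 rST regions, and 108 of these had no pacSC region. Next came 15000001 to 16000000 on chromosome 5 with 71 rST regions (31 without a pacSC region), 19000001 to 20000000 on chromosome 8 with 69 (3) and 47000001 to 48000000 on chromosome 6 with 62 (35). On chromosome 8 the pacSC list was the longer one, with 132 regions. In the 24 windows 42.1% of 361 pairs were higher in rST (37.1 to 47.3), against 11.5% of 4298 pairs elsewhere (10.6 to 12.5). This share came mostly from the 7 windows with the most rST regions, where it was 59.1% of 215 pairs (52.4 to 65.4). In the other 17 it was 17.1% of 146 pairs (11.9 to 24.1). In addition, 42.8% of the 670 rST regions there had no pacSC region, against 8.36% elsewhere. These windows were picked by their number of rST regions, so these values describe them only.

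**Figure D3:**
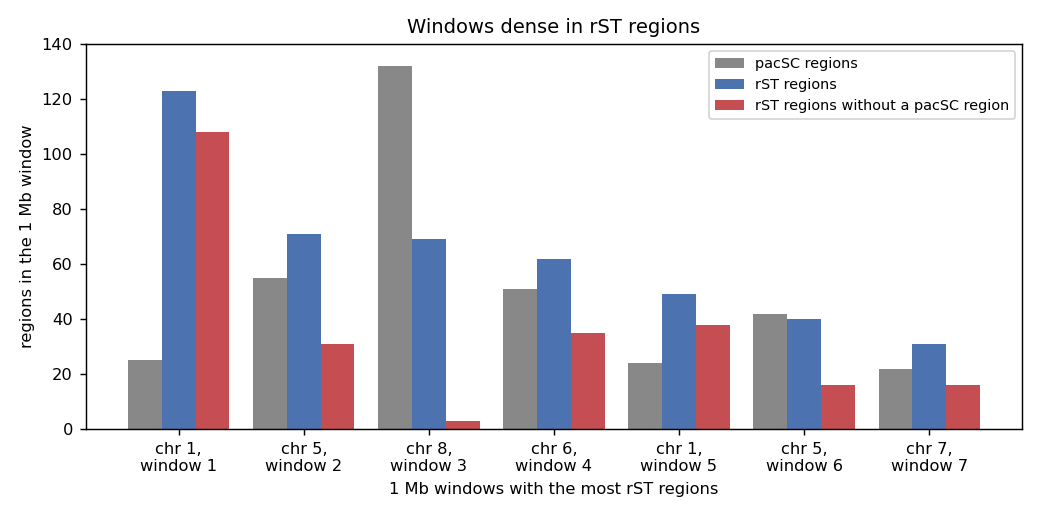
Number of pacSC regions, rST regions and rST regions without a pacSC region (bars, vertical axis) in the 7 windows of 1 Mb with the most rST regions (horizontal axis, from 123 to 31 rST regions). On chromosomes 1, 6 and 7 the rST bars are higher than the pacSC bars, and in the window on chromosome 8 almost all rST regions have a pacSC region.

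Toward the distal end of the chromosomes a smaller share of pacSC regions was listed again, in wide and narrow regions alike. The centromere of a mouse autosome is next to its lowest coordinates. The distal end was taken as the last listed base of each chromosome over the 4 lists. Of pacSC regions within 2 Mb of it, 103 of 2981 were listed again, or 3.46% (2.86 to 4.17). The share was 4.51% (3.82 to 5.32) at 2 to 5 Mb, 7.63% (6.64 to 8.76) at 5 to 10 Mb, 10.7% (9.60 to 11.9) at 10 to 20 Mb, 16.4% (15.3 to 17.5) at 20 to 40 Mb and 18.6% (18.0 to 19.2) beyond. After matching for width over 20 classes the shares were 2.98%, 4.35%, 7.19%, 10.9%, 16.5% and 18.3%, close to the unmatched ones. Regions of 1200 bp and over were listed again in 29.6% of cases within 2 Mb (23.9 to 36.0) and in 65.5% beyond 40 Mb (61.7 to 69.0), with the highest share, 78.0%, at 20 to 40 Mb. For regions of 600 to under 1200 bp the shares were 9.24% (6.47 to 13.0) and 44.3% (42.4 to 46.1), and for those under 150 bp 0.0652% (1 of 1534, 0.0115 to 0.368) and 5.39% (4.90 to 5.94).

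Taking the last 10 Mb as a zone, 4.75% of its pacSC regions were listed again after matching for width (4.31 to 5.18), against 17.1% elsewhere (16.7 to 17.5). The ratio was 0.278 (0.252 to 0.305). Matched for both width and height it was 0.309 (0.281 to 0.340). With regions matched for width and for the number of pacSC regions in the same 1 Mb window, a match added after seeing the data, it was 0.419 (0.278 to 0.632). It was 0.466 (0.422 to 0.515) among pacSC regions with a deposited -log10 q of at least 5, and 0.168 (0.133 to 0.213) where shared regions had to overlap by 50% of each. The distal share was the lower one on each of the 19 autosomes, with ratios from 0.0969 on chromosome 5 to 0.783 on chromosome 17 and a median of 0.302. Chromosomes share the libraries and are not replicates.

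**Figure D4:**
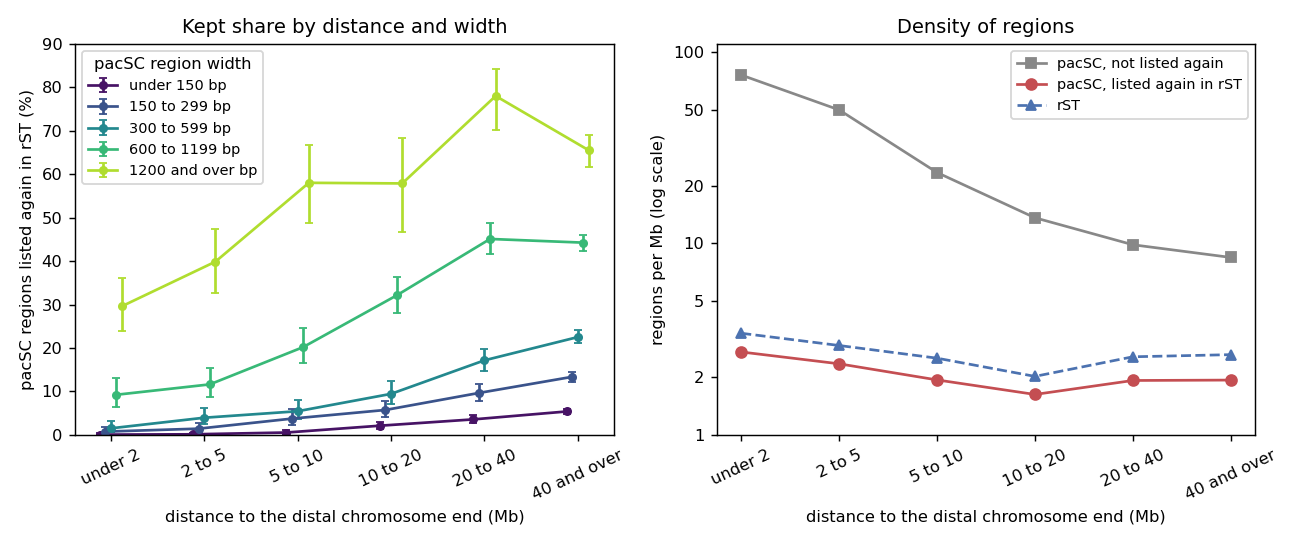
Left, share of pacSC regions listed again in rST (vertical axis, %) by distance to the distal chromosome end (horizontal axis, Mb), 1 line for each class of pacSC width, with 95% Wilson intervals as bars. Right, regions per Mb (log scale) by the same distances: pacSC regions not listed again fall from 75.7 to 8.45 per Mb away from the end, while those listed again stay between 1.63 and 2.71.

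The lower share at the distal end came with a high density of pacSC regions that had no rST counterpart. Per Mb, pacSC regions not listed again numbered 75.7 within 2 Mb of the end, 49.8 at 2 to 5 Mb, 23.5 at 5 to 10 Mb, 13.6 at 10 to 20 Mb, 9.84 at 20 to 40 Mb and 8.45 beyond. The regions listed again numbered 2.71, 2.35, 1.94, 1.63, 1.92 and 1.93 per Mb. In the last 10 Mb the former were 4.58 times as dense as elsewhere (4.46 to 4.70) and the latter 1.16 times (1.05 to 1.29). Very few rST regions were new there: 21 of 535 distal rST regions had no pacSC region, at 0.336 times the density elsewhere (0.218 to 0.519).

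The regions that were kept at the distal end were wide and tall in pacSC, and the widest of them lost more of both than regions of like width elsewhere. Within 2 Mb of the end the 103 shared regions had a median width of 1316 bp and height of 3.14, and their partners had 242 bp and 0.438. Beyond 40 Mb the 3198 shared regions had 626.5 bp and 1.23, and their partners 234 bp and 0.484. At like widths of 600 to under 1200 bp, the median width ratio was 0.227 in the distal 10 Mb (143 pairs) and 0.298 between both end zones (1655 pairs), and the median log2 height ratios were -2.26 and -1.59. At 1200 bp and over the width ratios were 0.188 (196 pairs) and 0.300 (481 pairs), and the log2 height ratios -2.54 and -1.51. The rST partners had median heights of 0.417 against 0.490 in the narrower class and 0.466 against 0.624 in the wider. Height was not matched, and the distal pairs were already taller in pacSC. Their median pacSC heights were 2.14 against 1.55 in the narrower class and 2.81 against 1.86 in the wider. Summit shifts had medians of 42 against 54 bp and 63.5 against 69 bp. In the 3 narrower classes the distal pairs were few and their width ratios were the higher ones: 1.22 (9 pairs) against 1.08 under 150 bp, 0.910 (28 pairs) against 0.820 at 150 to under 300 bp and 0.638 (45 pairs) against 0.502 at 300 to under 600 bp. Their median log2 height ratios were -0.93, -0.99 and -1.02, against -0.37, -0.71 and -0.91.

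The centromeric end was similar in kept share, a comparison added after seeing the data. Outside the distal zone, 5.82% of pacSC regions in the first 10 Mb were listed again after matching for width (5.03 to 6.62), against 19.1% further in (18.6 to 19.6), a ratio of 0.305 (0.265 to 0.350). The share was 4.42% within 2 Mb of the first listed base, 5.04% at 2 to 5 Mb and 7.79% at 5 to 10 Mb, and was 19.05% at 10 to 20 Mb. It was lower in the centromeric zone on each of the 19 autosomes, with ratios from 0.121 on chromosome 8 to 0.973 on chromosome 14, where the values hardly differed. The density of regions listed again was 1.82 per Mb within 2 Mb of the first listed base, 0.965 at 2 to 5 Mb, 1.05 at 5 to 10 Mb, 2.39 at 10 to 20 Mb, 1.95 at 20 to 40 Mb and 1.959 beyond. The width ratios of the shared regions near the centromere were 0.214 at 600 to under 1200 bp (73 pairs) and 0.187 at 1200 bp and over (89 pairs), close to those at the distal end. In the narrower classes they were 0.814 at 300 to under 600 bp (25 pairs), 0.904 at 150 to under 300 bp (24 pairs) and 0.95 under 150 bp (13 pairs), against 0.502, 0.820 and 1.08 between the end zones.

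**Figure D5:**
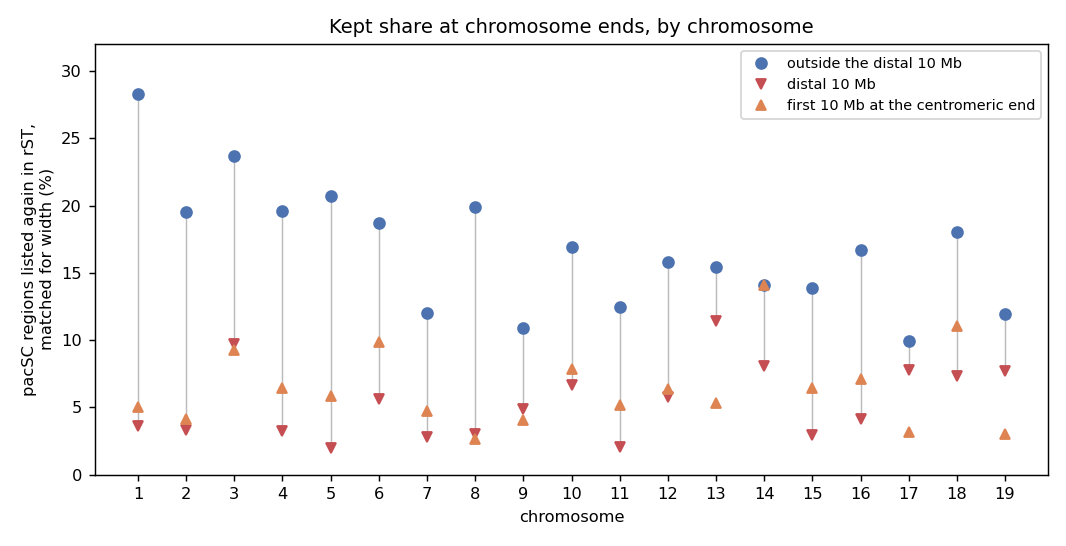
Share of pacSC regions listed again in rST after matching for width in 5 classes (vertical axis, %) for each autosome (horizontal axis), in the distal 10 Mb, outside it, and in the first 10 Mb at the centromeric end. The distal value is the lower one on each of the 19 chromosomes, and the centromeric value comes closest to the rest on chromosome 14.

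Among chromosomes, the kept share outside the distal 10 Mb ranged from 10.8% on chromosome 9 to 28.8% on chromosome 1, with a median of 16.7%. Over whole chromosomes it ranged from 9.23% on chromosome 7 to 22.9% on chromosome 1. The windows from 85000001 and 87000001 on chromosome 1 held 123 and 49 of its 707 rST regions, but only 25 and 24 of its 1901 pacSC regions.

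PacSC regions also listed in spermatogonia were kept more often in the distal zone and less often outside it, once matched for width and height. Without matching, 19.5% of the 18217 pacSC regions that overlapped a PriSG-A or SG-A region were listed again (18.97 to 20.1), against 7.48% of the 14685 in neither list (7.06 to 7.91). Matched for width and height the shares were 14.0% and 12.9%, a ratio of 1.09 (1.01 to 1.17), and without the 24 windows dense in rST regions the ratio was 1.001 (0.925 to 1.08). Outside the distal 10 Mb, a split added after seeing the data, the order was the opposite: 16.1% (15.6 to 16.5) of regions present in spermatogonia and 20.4% (19.1 to 21.8) of those in neither list. In the distal 10 Mb the shares were 5.55% (4.68 to 6.42) and 2.35% (1.59 to 3.11). The zones were also compared within each of these classes, with width and height weighted to that class alone. Among pacSC regions in neither spermatogonial list 1.24% (0.857 to 1.63) were then listed again in the distal zone and 11.1% (10.5 to 11.7) elsewhere. Among those in a spermatogonial list these shares were 8.00% (7.08 to 8.93) and 22.0% (21.5 to 22.6). The classes differed in width and height, so these shares compare zones and not classes. Unmatched, the shares outside the distal 10 Mb were 20.9% in a spermatogonial list and 11.2% in neither. In the distal 10 Mb they were 12.3% and 1.22%. The pairs present in spermatogonia also lost more height, with a median log2 ratio of -1.54 on 3560 pairs against -0.63 on 1099. These pairs were not matched for width or height. Those present in spermatogonia were wider in pacSC, at 821.5 against 276 bp, and taller, at a median height of 1.56 against 0.727. Their median height in rST was 0.487 against 0.459.

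The distal difference had the opposite sign at the earlier transitions, when each earlier list was followed into the next. Read from the pacSC list, however, the distal share was also the lower one against both spermatogonial lists. Matched for width, 34.2% of distal pacSC regions overlapped an SG-A region, against 59.7% elsewhere, and 25.5% against 54.3% overlapped a PriSG-A region. All pacSC regions together were 3.99 times as dense in the last 10 Mb as elsewhere. Matched for width, 78.7% of distal PriSG-A regions were listed again in SG-A (77.6 to 79.8) against 71.0% elsewhere (70.7 to 71.4), and 27.5% of distal SG-A regions in pacSC (26.7 to 28.2) against 15.4% elsewhere (15.2 to 15.6). Of pacSC regions of 1200 bp and over, 56.7% were listed again in rST, whereas 75.6% (74.7 to 76.5) of SG-A regions of that width were listed again in pacSC and 99.9% (99.8 to 99.985) of PriSG-A regions in SG-A. The median width ratio was 1.80 from PriSG-A to SG-A, 0.505 from SG-A to pacSC and 0.427 from pacSC to rST. The median log2 height ratios were 1.16, -1.24 and -1.30. Summits lay within 50 bp of each other in 39.8%, 41.1% and 54.9% of pairs. In regions of 600 to under 1200 bp the median shifts were 64, 71 and 52 bp. These transitions share lists with each other, and the lists differ in length, so the values stand side by side with no test.

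Pairs with strong peaks in both lists differed less between the stages. The deposited -log10 q was at least 5 on both sides in 144 pairs. In these the median width ratio was 0.940, the median log2 height ratio -0.45 and the median summit shift 14.5 bp. In the 1906 pairs that reached this value in pacSC, the medians were 0.302, -1.86 and 42 bp. The first set was selected on the rST value itself.

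Some wide pacSC regions outside the distal 10 Mb had no rST counterpart at all. The widest was on chromosome 17 at 4993979 to 4996820, with 2842 bp and a height of 1.73 in pacSC, 1.10 in PriSG-A and 2.87 in SG-A, and its nearest rST region was 193407 bp away. It was followed by regions on chromosome 15 at 39028235 to 39030928 (2694 bp), chromosome 7 at 6680522 to 6683088 (2567 bp), chromosome 17 at 8356652 to 8359107 (2456 bp) and chromosome 2 at 3881748 to 3884161 (2414 bp). The 4 on chromosomes 17, 7 and 2 lay in the first 10 Mb at the centromeric end, where few regions were listed again. All 5 overlapped regions of both spermatogonial lists, and all 5 were higher in SG-A than in PriSG-A. Such a rise was common, as only 13.5% of all 39026 pairs of PriSG-A and SG-A regions were lower in SG-A. Of all 32902 autosomal pacSC regions, 18217 overlapped a region of at least 1 spermatogonial list, and the number that overlapped both is not given here.

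The rST regions without a pacSC counterpart were narrow and low. Their median width was 109 bp and their median height 0.360, against 193 bp and 0.472 for the other rST regions. Of the 752, 287 lay in the 24 windows dense in rST regions, and 108 of these in 1 window on chromosome 1. A spermatogonial region was overlapped by 389 of the 752, or 51.7% (48.2 to 55.3). These were thus listed before and after pacSC but not in it. The share over all rST regions is not given here, and among pacSC regions 18217 of 32902 overlapped a spermatogonial region. The other 363 of the 752, or 5.82% of the rST list (5.27 to 6.43), were in no other list. The widest of these lay on chromosome 15 at 7751353 to 7752601, with 1249 bp and a height of 0.430, 2212 bp from the nearest pacSC region. The next were on chromosome 15 at 12932850 to 12933907 (1058 bp, height 0.290), chromosome 1 at 35171827 to 35172880 (1054 bp, 0.824) and chromosome 7 at 89401525 to 89402334 (810 bp, 0.635). Each of these 3 lay at least 29955 bp from a pacSC region.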

How the data were processed

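Regions were read from 4 deposited ATAC-seq peak lists, 1 per stage for all its libraries. For each peak the authors deposited a score, a signal (column 7), the q as -log10 and the offset of the summit. The deposited score equalled 1000 times the signal value per bp of width, capped at 1000, within 1 for all peaks, so the signal is an area. The lowest deposited signal was 20.0. Its scaling to depth, the peak caller and its settings, and how replicates were pooled, are not given in the sources used. Per the submitters' processing notes, Bowtie2 2.2.5, Bowtie, SAMtools and mm10 were used. Listed peaks ran past the last GRCm38 gene of a RefSeq table on 10 of 19 autosomes, by up to 7.20 Mb, so positions were not treated as mm10. Genes, promoters and sequences are therefore not given.

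Shared regions overlapped by at least 1 bp. The rST partner was that of longest overlap. Shares were matched by direct standardisation over 20 width quantile classes, or 10 of width by 5 of height. Shares have Wilson intervals and medians order-statistic intervals, at 95%. Named regions were the 5 of highest rST height among pairs of at least 300 bp in both lists; among such pairs of 1 region each, the 4 highest and 4 lowest in height ratio and in width ratio and the 4 longest shifts; the 4 pacSC regions with most rST regions; the 5 widest unshared pacSC regions at least 10 Mb from the distal end; and the 4 widest rST regions in no other list. Members, classes and rules were chosen with earlier results of these data known. Calculations used Python 3.11.15, pandas 2.3.3, NumPy 2.4.6 and SciPy 1.17.1, and were tested on simulated data. Alternatives covered overlap rules, q thresholds, list length, zones, matching and dense windows.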

Additional observations from a re-analysis of the deposited data

How the results depend on the processing

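Over 8 results and 53 alternatives, 7 of them added after seeing the data, 16 values stayed within the interval of the reported one, 36 moved and 1 reversed. The cause of each move was not tested. The kept share of 14.2% became 5.29% with a reciprocal overlap of 50%, 13.6% with the rST summit inside the pacSC region, 4.07% with both lists held to a -log10 q of 5 or more, 53.9% with that threshold on pacSC only, 44.0% with lists cut to equal length by q, and 13.4% without the windows dense in rST regions. The new share of 12.1% became 72.1%, 13.4%, 0% (0 of 176 with the threshold on rST only, where the Wilson upper limit is 2.14% and 3 counts of 176 would be 1.70%), 43.4% and 8.36% under the reciprocal, summit, threshold, length and window settings. The distal ratio of 0.278 was 0.226 for the last 5 Mb, 0.362 for the last 20 Mb, 0.309 matched for width and height, 0.168 with the reciprocal overlap, 0.466 with the q threshold on pacSC, 0.321 without windows dense in pacSC regions, 0.419 matched for width and local density and 0.246 without the centromeric 10 Mb. The centromeric ratio of 0.305 was 0.252 for the first 5 Mb. The ratio for spermatogonial presence of 1.09 was 2.61 unmatched, 1.26 matched for width only, 0.786 outside the distal 10 Mb, 2.36 inside it and 1.001 without the dense windows. The width ratio of 0.427 was 0.479 in pairs of 1 region each, 0.940 with the q threshold in both lists, 0.585 at 300 bp or more in both, 0.404 without the dense windows and 0.480 with summed widths. The log2 height ratio of -1.30 was -0.45 with the q threshold in both lists, -1.35 without the dense windows, -2.64 for the area and -0.94 relative to the list medians. The summit shift of 40 bp was 35 bp in pairs of 1 region each, 14.5 bp with the q threshold in both lists and 54 bp at 300 bp or more. No paired analysis was possible because the libraries of a stage share 1 list, which also prevents leaving out single replicates.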

Other observations

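The sex chromosomes were outside the comparison. On chromosome X 127 of 781 pacSC regions were listed again in rST, or 16.3% (95% interval 13.8 to 19.01). Matched for width this was 14.6%, against 14.2% on the autosomes, a ratio of 1.03 (0.870 to 1.22). The kept regions were unevenly placed. In 1 stretch of 3 Mb, known from earlier results of these data, 106 of 319 were listed again, or 33.2% (28.3 to 38.6), and 21 of 462 on the rest of chromosome X, or 4.55% (2.99 to 6.85). The 127 pairs on chromosome X had a median width ratio of 0.717, a median log2 height ratio of -0.89 and a median summit shift of 30 bp. On chromosome Y 35 of 92 pacSC regions were listed again, or 38.0% (28.8 to 48.3).

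Outside the distal 10 Mb, the kept share varied with the number of pacSC regions in the same 1 Mb window. It was 26.1% (24.0 to 28.3) in windows with 1 to 5 pacSC regions, 23.1% (22.0 to 24.3) with 6 to 10, 16.1% (15.4 to 16.7) with 11 to 20 and 9.69% (8.87 to 10.6) with 21 to 40. In windows with 41 or more it was 22.1% (19.6 to 24.9), on 944 regions. In the distal 10 Mb the last 3 classes had 11.2%, 6.56% and 3.83%.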
